A study of Mus musculus with 6 samples.

Results

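The mitochondrial ribosomal protein genes were followed in a mouse leukaemia cell line after 6 days with 4'-O-methylpyridoxine (OMP) or with vehicle. Members were the rows of the expression table whose gene name is Mrpl or Mrps, then a number and at most 1 letter. This rule took 78 of the 53465 rows, 49 named for the large subunit (Mrpl) and 29 for the small subunit (Mrps), and left out 5 pseudogene names ending in -ps and a digit or in -ps alone. All 78 are annotated as protein-coding, on 17 chromosomes. OMP, also called ginkgotoxin, is an analog of vitamin B6 that is known to inhibit pyridoxal kinase. OMP libraries came from Nras(G12D)/MLL-AF9 cells kept 6 days in 100 µM OMP, and Vehicle libraries from the same line given an equal volume of PBS for that time. Each group had 3 libraries, and all cells grew in RPMI with serum and the cytokines SCF, IL-3 and IL-6. They carry an Nras allele with the G12D change and the MLL-AF9 fusion, both of which the Vehicle cells share, and they represent 1 line. Whether replicates were separate cultures is not stated in the labels, and p-values therefore describe how far these libraries spread, which can be technical.

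The mitochondrial ribosome translates the few mRNAs that mitochondrial DNA encodes, all of them for hydrophobic subunits of the respiratory chain and ATP synthase. Its rRNAs are transcribed inside the organelle, while its proteins are encoded in the nucleus, made on cytosolic ribosomes and imported. Some of these proteins descend from bacterial ribosomal proteins and others were added in the mitochondrial lineage, where the rRNAs became shorter. The small subunit holds the decoding site and the large subunit the peptidyl transferase centre, the exit tunnel and the binding site at the inner membrane. Acute myeloid leukaemia cells are known for their reliance on mitochondrial translation.

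Poly(A) RNA was sequenced and deposited as RPKM (reads scaled to gene length and library total). The values resolved into whole reads, with library totals of 3494986 to 3720117 reads in OMP and 3737843 to 4247619 in Vehicle, and members took 0.355% to 0.383% of a library. Markers fitted the labelled myeloid leukaemia cell: all 12 of its markers passed the expression filter, with a summed level of 1549 to 1648 RPKM in OMP and 3010 to 3096 RPKM in Vehicle. None of 3 megakaryocyte or 4 T-cell markers passed. The summed level of the megakaryocyte markers was at most 2.08 RPKM in OMP and 0.910 RPKM in Vehicle, with Pf4 at 0. T-cell markers were at 0 throughout, and of 4 markers of stroma and endothelium only Pecam1, which myeloid cells also express, passed. What share the lower myeloid sum has in the results below was not tested, and in bulk RNA fewer cells of a type and less RNA per cell cannot be told apart.

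Mitochondrial ribosomal protein genes moved in both directions in OMP-treated cells by modest amounts, and the balance of rises and falls depended on how libraries were scaled. Of the 77 members tested, 16 were higher and 17 lower in OMP at a limma adjusted p under 0.05, and 44 did not pass. Rescaled to TPM (RPKM divided so that each library sums to the same total), 9 were higher and 28 lower, and with the trend on GC content and length removed 22 were higher and 11 lower. The called share of 42.9% stood beside 43.0% of all 11020 genes tested. By direction, 20.8% of the members were higher against 15.4% of all genes, and 22.1% lower against 27.5% of all genes. Fitted log2 fold changes ran from -0.82 (Mrps36) to 0.60 (Mrpl47), with a median of -0.02 for the members and -0.09 for all genes tested. In 16 members all OMP libraries lay above all Vehicle libraries, which was so for 19.9% of all genes, and in 20 all lay below, which was so for 34.6% of all genes. Together these were 46.8% of the members tested against 54.5% of all genes. At an adjusted p under 0.01, 19 members were called, against 27.9% of all genes. The remaining member, Mrpl53 of the stalk base, is listed at 0 in every library and was not tested. In the annotation 88.0% of its exon bases also belong to Gm42688 or Ccdc142os, and how the authors' counting treats such bases is not given in the sources used here.

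**Figure D1:**
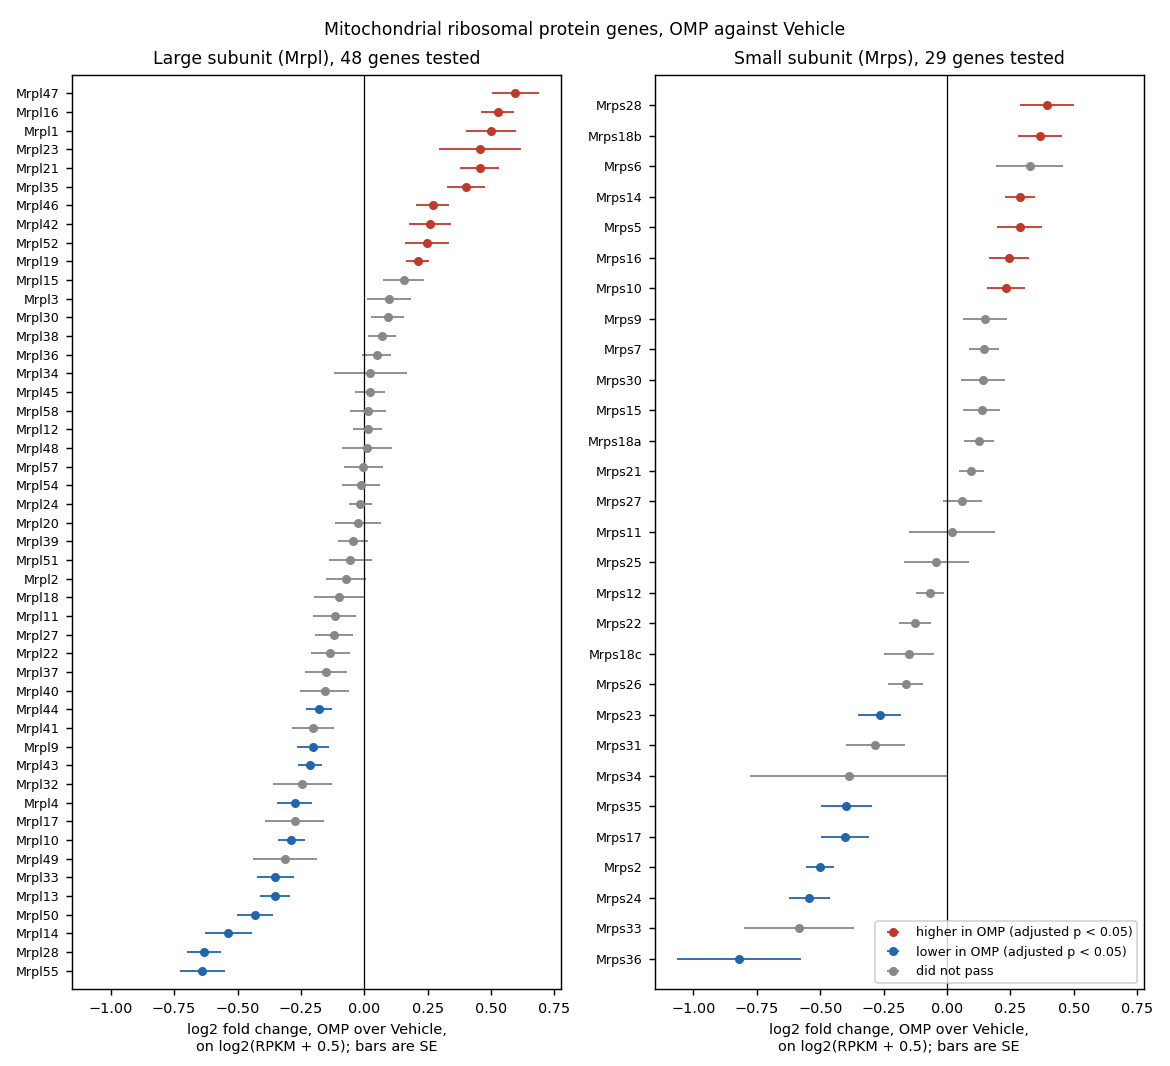
Fitted log2 fold change of OMP over Vehicle for each tested member, with 48 large subunit genes on the left and 29 small subunit genes on the right, bars showing 1 SE. Both panels hold red genes (higher in OMP), blue genes (lower in OMP) and a grey majority that did not pass, and the extremes are Mrpl47 at 0.60 and Mrps36 at -0.82.

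Among large subunit genes, 10 of 48 rose (20.8%, against 15.4% of all genes), and Mrpl47 rose most. With TPM 6 rose, against 11.0% of all genes, and with median-of-ratios scaling 11, against 21.5%. Mrpl47, a homologue of bacterial L29 at the mouth of the exit tunnel (chromosome 3, 32725397 to 32737605, minus strand, GRCm38), had 16.2, 15.0 and 16.9 RPKM in OMP replicates 1 to 3, against 9.23, 10.8 and 11.3 RPKM in Vehicle replicates 1 to 3. Every OMP library was above every Vehicle library. The rise was 1.51-fold, or 0.60 ± 0.09 (SE) on the log2 scale, at a limma adjusted p of 0.00118. Of its exon bases 24.2% overlap Ndufb5 or Actl6a. Mrpl16, a homologue of bacterial L16 near the peptidyl transferase centre (chromosome 19, 11770391 to 11774960, plus strand), had 44.1, 46.2 and 43.8 RPKM in OMP, against 28.4, 31.2 and 33.4 RPKM in Vehicle. The groups were far apart for its level, and it rose 1.44-fold (limma adjusted p = 0.000366). Mrpl1, the protein of the mobile L1 stalk next to the tRNA exit site (chromosome 5, 96209493 to 96266727, plus strand), had 16.1, 12.6 and 13.4 RPKM in OMP and 10.2, 9.21 and 9.80 RPKM in Vehicle. Its OMP libraries were again all above the Vehicle ones, with OMP replicate 1 the highest, and it rose 1.41-fold (limma adjusted p = 0.00430).

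Mrpl21 had 48.3, 52.9 and 46.3 RPKM in OMP, against 32.4, 39.1 and 35.8 RPKM in Vehicle, with no overlap. This homologue of bacterial L21 rose 1.37-fold (limma adjusted p = 0.00195). Mrpl35, a homologue of bacterial L35, had 15.1, 16.6 and 16.8 RPKM in OMP, against 13.0, 11.6 and 11.8 RPKM in Vehicle, also with no overlap, and rose 1.32-fold (limma adjusted p = 0.00340). Mrpl23, a homologue of bacterial L23 at the exit tunnel, had 16.3, 22.2 and 20.5 RPKM in OMP, against 10.9, 16.3 and 15.7 RPKM in Vehicle. The lowest OMP library barely cleared the highest Vehicle library, at 30 to 58 reads per library, and the log2 fold change of 0.46 passed narrowly (SE 0.16, limma adjusted p = 0.0494). Its adjusted p was 0.140 without OMP replicate 2, 0.120 without OMP replicate 3, 0.117 without Vehicle replicate 1 and 0.0526 without Vehicle replicate 3. It also missed the threshold with TPM, without the expression filter, with a pseudocount of 0.1 and with a robust prior. Its pseudogene row, Mrpl23-ps1, held 14 reads over all libraries, so reads could be split between copies. The other 4 large subunit genes that rose were Mrpl46, Mrpl42, Mrpl52 and Mrpl19, by 0.21 to 0.27 on the log2 scale. Mrpl52 missed the threshold in 10 of the 17 alternatives, and Mrpl19 shares exon bases with Gcfc2. Mrpl46 held its call in all 17 alternatives, as did Mrpl47, Mrpl16, Mrpl1, Mrpl21 and Mrpl35.

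Falls in the large subunit numbered 11 of 48 on the RPKM scale (22.9%, against 27.5% of all genes) and were led by Mrpl55 and Mrpl28. With TPM they numbered 18, against 36.1% of all genes, and with median-of-ratios scaling 7, against 20.3%. Mrpl55, a protein of the central protuberance (chromosome 11, 59202486 to 59206134, plus strand), had 11.9, 12.6 and 12.3 RPKM in OMP, against 21.6, 17.2 and 19.5 RPKM in Vehicle. The OMP libraries were close together and all below the Vehicle libraries, a 1.56-fold difference (log2 fold change -0.64, SE 0.09, limma adjusted p = 0.000668). Mrpl28, a homologue of bacterial L28 (chromosome 17, 26123500 to 26126613, plus strand), had 37.1, 32.2 and 32.1 RPKM in OMP, against 53.1, 54.8 and 49.9 RPKM in Vehicle. It was 1.55-fold lower with a wide gap between groups (limma adjusted p = 0.000187). Mrpl14, a homologue of bacterial L14 on the face that meets the small subunit, had 15.5, 18.8 and 15.8 RPKM in OMP, against 22.4, 24.3 and 26.6 RPKM in Vehicle. No library of one group reached the other, and it was 1.45-fold lower (limma adjusted p = 0.00205).

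The other 8 large subunit genes that fell spanned -0.18 to -0.43 on the log2 scale. Mrpl50, a mitochondria-specific protein, averaged 20.9 ± 1.04 RPKM in OMP and 28.4 ± 2.19 RPKM in Vehicle (SD, n = 3 each). Mrpl13, a homologue of bacterial L13, averaged 48.9 ± 2.51 RPKM in OMP and 62.5 ± 3.60 RPKM in Vehicle (SD, n = 3 each). Mrpl33 had the highest level of all members, with 159, 158 and 139 RPKM in OMP and 175, 206 and 202 RPKM in Vehicle. Its groups did not overlap, and it was 1.27-fold lower (limma adjusted p = 0.00535). Mrpl4, Mrpl9 and Mrpl43, each with groups that did not overlap, were lower by 0.27, 0.20 and 0.22 on the log2 scale. Mrpl9 missed the threshold in 8 of the 17 alternatives, and 33.4% of the exon bases of Mrpl43 also belong to Twnk. Mrpl10, Mrpl13, Mrpl14, Mrpl28, Mrpl33, Mrpl50 and Mrpl55 held their calls in all 17 alternatives.

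**Figure D2:**
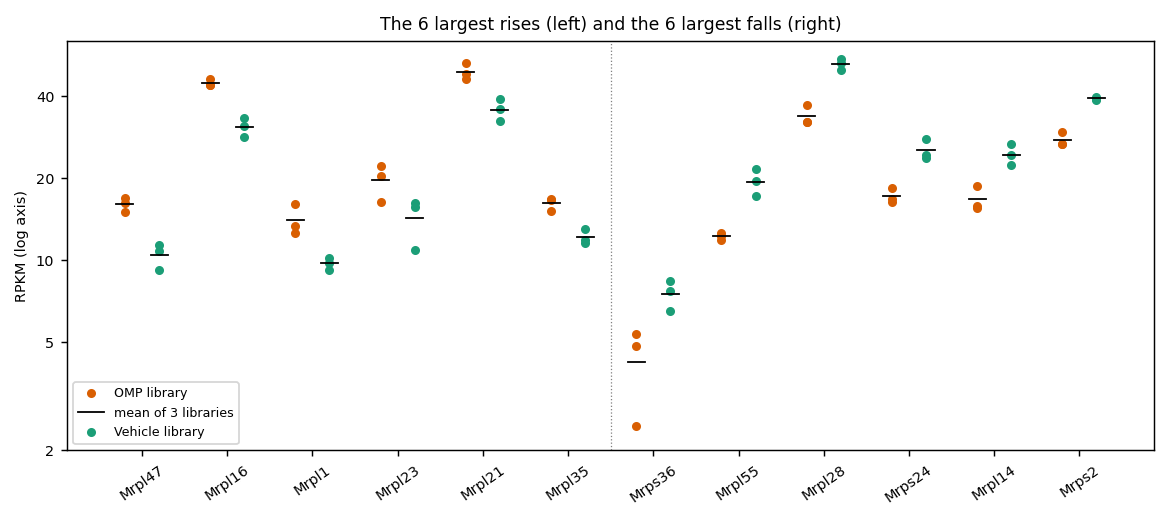
RPKM on a log axis in each OMP library (orange, left of each pair) and each Vehicle library (green) for the 6 largest rises and the 6 largest falls past the threshold, with horizontal lines at the mean of 3 libraries. The groups of all 12 genes are apart, by the least for Mrpl23 and with the lowest levels for Mrps36, whose OMP libraries held 6, 12 and 14 reads.

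In the small subunit 6 of 29 genes rose and 6 fell on the RPKM scale (20.7% each, against 15.4% and 27.5% of all genes). With TPM 3 rose and 10 fell, against 11.0% and 36.1% of all genes. With median-of-ratios scaling the counts were 11 and 5, against 21.5% and 20.3%. After quantile normalization they were 10 and 4, against 20.4% and 21.1%. With the GC and length trend removed they were 11 and 3, against 22.5% and 19.6%. Mrps28 had 40.9, 51.4 and 38.1 RPKM in OMP, against 34.2, 34.0 and 30.1 RPKM in Vehicle. This 1.31-fold rise without overlap (limma adjusted p = 0.0175) missed the threshold without Vehicle replicate 3 and without the expression filter. Mrps18b had 29.7, 33.9 and 28.4 RPKM in OMP, against 24.3, 25.4 and 21.4 RPKM in Vehicle. This paralogue of bacterial S18 rose 1.29-fold with no overlap (limma adjusted p = 0.00954), while 30.5% of its exon bases also belong to Gm16279. Mrps14, whose bacterial homologue S14 sits in the head, had 19.7, 19.8 and 20.6 RPKM in OMP, against 16.6, 16.6 and 15.8 RPKM in Vehicle. Both groups were tight and apart, and it rose 1.22-fold (limma adjusted p = 0.00467). Mrps5, Mrps16 and Mrps10, homologues of bacterial S5, S16 and S10, rose by 0.29, 0.24 and 0.23 on the log2 scale. Mrps10 was the 1 called member whose groups overlapped, with an OMP library at 49.1 RPKM under a Vehicle library at 49.2 RPKM. Mrps16 and Mrps10 missed the threshold in 6 of the 17 alternatives and Mrps5 in 5. Mrps14 and Mrps18b held their calls in all 17.

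Mrps36 had the lowest log2 fold change of any member, -0.82 (SE 0.24, limma adjusted p = 0.0256), on very few reads. Its level was 2.45, 4.82 and 5.37 RPKM in OMP, against 6.49, 7.67 and 8.40 RPKM in Vehicle, and stood for 6, 12 and 14 reads in OMP against 17, 22 and 25 in Vehicle. Without OMP replicate 1, the lowest library, the log2 fold change was -0.51, and without Vehicle replicate 2 or 3 the adjusted p was 0.0621 or 0.0763. The call was also lost without the expression filter. The gene has 3 pseudogene rows in the table, which together held 6 reads over all libraries, so reads could be split between copies. Although named as a ribosomal protein, Mrps36 is known as a component of the 2-oxoglutarate dehydrogenase complex.

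The better-measured falls of the small subunit were Mrps24 and Mrps2. Mrps24, a homologue of bacterial S3 (chromosome 11, 5703983 to 5715680, minus strand), had 16.4, 18.4 and 16.7 RPKM in OMP, against 23.7, 24.3 and 27.9 RPKM in Vehicle. It was 1.46-fold lower with no overlap (limma adjusted p = 0.000888). Mrps2, a homologue of bacterial S2 (chromosome 2, 28468066 to 28471178, plus strand), had 26.7, 29.5 and 26.8 RPKM in OMP, against 39.2, 38.9 and 39.8 RPKM in Vehicle. Its Vehicle libraries were nearly equal, and it was 1.42-fold lower (limma adjusted p = 0.000211). Both calls held in all 17 alternatives. Mrps17, a homologue of bacterial S17, and the mitochondria-specific Mrps35 both fell by 0.40 on the log2 scale, and Mrps23 fell by 0.27. Mrps35 missed the threshold without Vehicle replicate 3 and in 2 other alternatives, and Mrps23 missed it in 9 of the 17.

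Several members with known special roles did not pass the test. Mrpl12, the L7/L12 stalk protein that recruits translation factors and is also known to bind the mitochondrial RNA polymerase, had 48.9, 53.7 and 54.9 RPKM in OMP, against 53.3, 50.1 and 52.6 RPKM in Vehicle. The groups overlapped and the log2 fold change was 0.01 (SE 0.06). Of the other stalk proteins, Mrpl10 was lower, with 30.7, 30.7 and 28.8 RPKM in OMP and 36.3, 38.2 and 35.8 RPKM in Vehicle (log2 fold change -0.29, limma adjusted p = 0.00273), while Mrpl11 had a log2 fold change of -0.12 (SE 0.09). Mrps12, the S12 homologue at the decoding site, averaged 31.5 ± 0.678 RPKM in OMP and 33.1 ± 1.83 RPKM in Vehicle (SD, n = 3 each) with overlapping groups. Mrpl58, a peptidyl-tRNA hydrolase that rescues stalled ribosomes, had a log2 fold change of 0.02 (SE 0.07), and Mrpl45, which faces the inner membrane at the exit tunnel, one of 0.02 (SE 0.06). Mrpl44, which has a ribonuclease III fold, had 51.0, 49.4 and 54.7 RPKM in OMP, against 57.1, 58.9 and 59.8 RPKM in Vehicle. It was called lower (log2 fold change -0.18, limma adjusted p = 0.0209), but not without OMP replicate 1 or 2, nor without Vehicle replicate 2 or 3. The call was also lost with median-of-ratios scaling, after quantile normalization and with the GC and length trend removed.

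Mammals carry 3 homologues of bacterial S18, and each mitochondrial ribosome holds all of them, Mrps18a in the large subunit. Mrps18b rose as above. Mrps18a had 48.6, 51.9 and 52.6 RPKM in OMP, against 45.4, 44.8 and 50.1 RPKM in Vehicle, with overlap (log2 fold change 0.13, limma adjusted p = 0.115). Mrps18c had 37.7, 43.3 and 36.7 RPKM in OMP, against 37.5, 46.8 and 46.8 RPKM in Vehicle, and its log2 fold change was -0.15 (SE 0.10, limma adjusted p = 0.246).

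By position in the ribosome, the calls were spread over all classes examined. The central protuberance had 2 of 10 genes higher (Mrpl46, Mrpl52) and 1 lower (Mrpl55), and the exit tunnel 2 of 7 higher (Mrpl47, Mrpl23) and 1 lower (Mrpl44). Of 28 mitochondria-specific proteins tested, 3 were higher and 5 lower, 28.6% in all. Of 48 homologues of bacterial proteins, 13 were higher and 11 lower, or 50.0%, against 43.0% of all genes tested. None of the 9 mitochondria-specific proteins of the small subunit was called higher and 2 were called lower (Mrps23, Mrps35), or 22.2%. Both calls were lost with the GC and length trend removed and after quantile normalization. The median log2 fold change of this class was -0.27, against -0.09 for all genes tested. Mrps33 of that class had 6.20, 7.38 and 3.64 RPKM in OMP, against 9.43, 8.61 and 7.66 RPKM in Vehicle. Its groups were apart but it missed the threshold (log2 fold change -0.58, SE 0.22, limma adjusted p = 0.0585) on 15 to 39 reads per library. The difference between classes was not tested.

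Large and small subunit genes had similar shares of calls, 43.8% of 48 and 41.4% of 29. Their median log2 fold changes were -0.03 and 0.02, and the difference of -0.05 was 0.00 without Vehicle replicate 1. Mrps30 and Mrps18a are known to sit in the large subunit in spite of their names, and with both moved there the difference was 0.02. Mrps30 itself had 16.6, 18.6 and 19.0 RPKM in OMP, against 14.7, 16.7 and 17.6 RPKM in Vehicle, with overlap and a difference of 0.14 on the log2 scale (limma adjusted p = 0.224). The summed level of the 78 members was 2577, 2717 and 2470 RPKM in OMP replicates 1 to 3, against 2614, 2679 and 2669 RPKM in Vehicle replicates 1 to 3. OMP replicates 2 and 3 were the highest and the lowest of the 6 libraries, so the groups overlapped. With subunits by name, the ratio of the summed large to the summed small subunit RPKM was 2.29, 2.24 and 2.21 in OMP, against 2.33, 2.35 and 2.41 in Vehicle. It was not computed with Mrps30 and Mrps18a moved. This ratio was lower in every OMP library than in any Vehicle library, with means of 2.25 ± 0.0387 in OMP and 2.36 ± 0.0445 in Vehicle (SD, n = 3 each). The most abundant genes weigh most in it: the large subunit sum averaged 1791 RPKM in OMP and 1865 RPKM in Vehicle, and Mrpl33 alone averaged 152 RPKM in OMP and 195 RPKM in Vehicle.

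**Figure D3:**
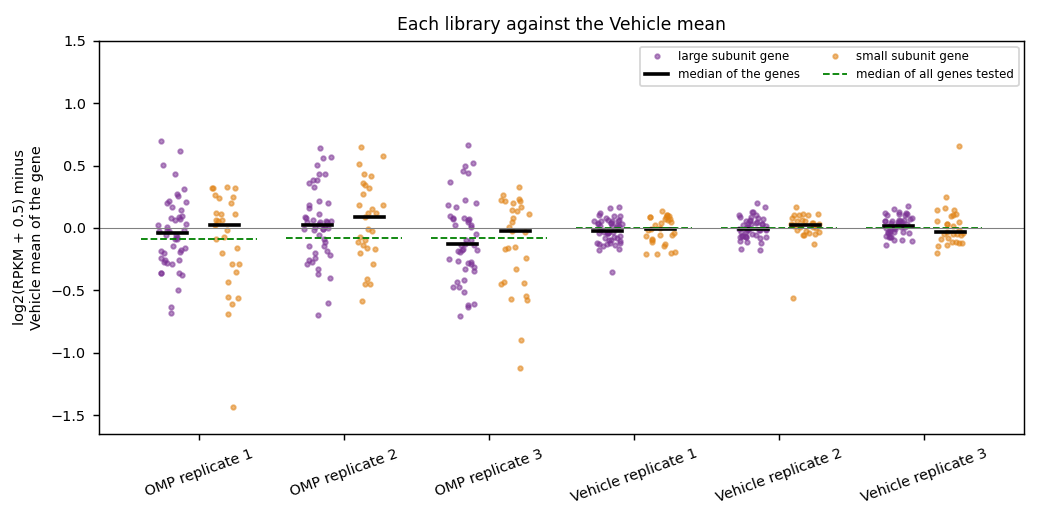
Each member's log2(RPKM + 0.5) in each library minus its Vehicle mean, with OMP replicates left of Vehicle replicates, large subunit genes purple and small subunit genes orange, medians as black bars and the median of all genes tested as a dashed line. Members scatter to both sides of 0 in every OMP library, and the narrower Vehicle spread is in part because each Vehicle library is in the mean it is set against. The member medians are -0.02, 0.03 and -0.10 in OMP replicates 1 to 3, against an all-gene median near -0.08.

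The balance of rises and falls differed with how the libraries were put on a common scale. Rescaled to TPM, 9 members were higher and 28 lower, against 11.0% and 36.1% of all genes. With median-of-ratios scaling 22 were higher and 12 lower, against 21.5% and 20.3% of all genes. Quantile normalization gave 21 higher and 13 lower, against 20.4% and 21.1% of all genes. Removing what followed GC content and length gave 22 higher and 11 lower, against 22.5% and 19.6% of all genes. The members' median lay 0.04 to 0.07 above the median of all genes on the log2 scale in all of these settings. TPM and median-of-ratios scaling move all genes of a library together, so this offset could hardly change with them. On the RPKM scale, by library against the Vehicle mean, it was 0.07, 0.11 and -0.02 in OMP replicates 1 to 3. In Vehicle replicates 1 to 3 it was -0.02, 0.01 and 0.01. Of the 16 rises 9 and of the 17 falls 10 were called under all 4 of these scalings, and no member was called in opposite directions in any of the 17 alternatives.

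**Figure D4:**
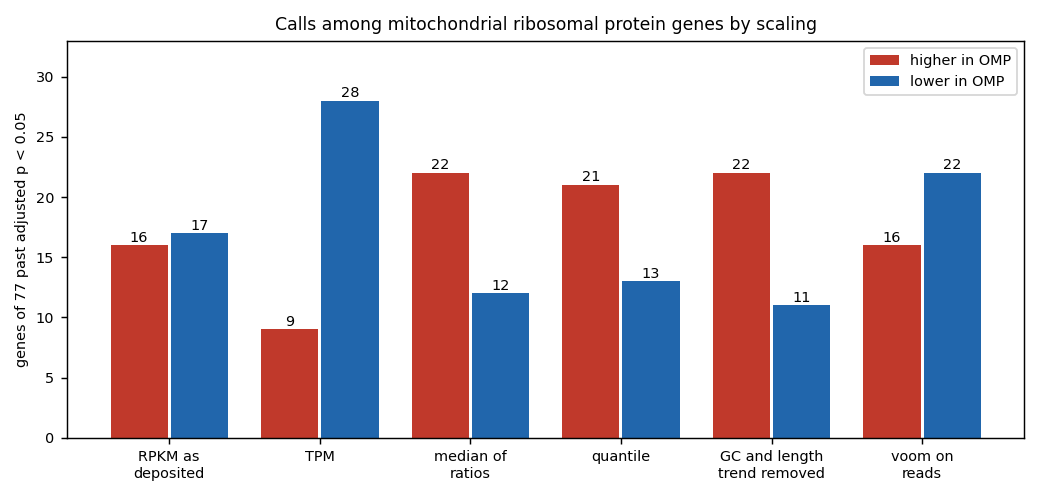
Number of the 77 tested members called higher (red) and lower (blue) in OMP at an adjusted p under 0.05 under each scaling of the libraries. The split runs from 9 higher and 28 lower with TPM to 22 higher and 11 lower with the GC and length trend removed, while RPKM as deposited gives 16 and 17.

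Levels differed more between members than between groups. Per length, mean RPKM over the 6 libraries was highest for Mrpl33 (173), Mrpl20 (106) and Mrpl42 (83.6), and lowest for Mrps34 (5.04), Mrps25 (5.32) and Mrps36 (5.87). Mrpl20, a homologue of bacterial L20, had 113, 114 and 90.1 RPKM in OMP, against 115, 107 and 100.1 RPKM in Vehicle, with overlap. Mrpl42, which is mitochondria-specific, had 91.5, 95.5 and 86.0 RPKM in OMP, against 67.1, 85.1 and 76.4 RPKM in Vehicle. Its groups were just apart and it rose 1.20-fold (limma adjusted p = 0.0332). That call was lost with TPM, without the expression filter, without OMP replicate 1 or 2 and without Vehicle replicate 1 or 3. Mrps34 had 3.12, 7.36 and 2.64 RPKM in OMP, against 4.95, 3.46 and 8.72 RPKM in Vehicle, and libraries of both groups were spread widely (log2 fold change -0.39, SE 0.39). The 2 lowest members, Mrps34 and Mrps25, share 77.8% and 69.8% of their exon bases with other genes, Mapk8ip3 and Nme3 for the first and Nr2c2 for the second.

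Member genes are short, with a median counted length of 1316 bp against 2826 bp for all genes tested. Median GC content was 47.0% among the 16 rises, 51.4% among the 17 falls and 49.8% among the 44 uncalled members. Across the 77 members, which share the same libraries, the log2 fold change had a Pearson correlation of -0.12 with GC content, 0.11 with log2 length and 0.14 with mean level. Many members start beside another gene on the opposite strand. For 33 of 77 tested members (42.9%) a protein-coding gene on that strand started within 1000 bp, upstream or downstream of the member's start. This was so for 18.5% of 9889 protein-coding genes tested. Such neighbours stood beside 5 of the 16 rises, 7 of the 17 falls and 21 of the 44 uncalled members. In 1 case both partners are members. Mrpl46, a mitochondria-specific protein of the central protuberance (chromosome 7, 78775236 to 78783531, minus strand), and Mrps11, a homologue of bacterial S11 (chromosome 7, 78783119 to 78792989, plus strand), overlap at their 5′ ends. Mrpl46 had 27.8, 31.5 and 28.2 RPKM in OMP, against 24.3, 23.1 and 24.9 RPKM in Vehicle, and rose 1.20-fold without overlap (limma adjusted p = 0.0111). Mrps11 had 18.2, 21.9 and 13.7 RPKM in OMP, against 14.9, 16.9 and 20.7 RPKM in Vehicle, a log2 fold change of 0.02 (SE 0.17).

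Promoters of 5 members are shown: the largest rise, the largest fall apart from Mrps36, the pair Mrpl46 and Mrps11, and Mrpl17. Mrpl17 is the first by name of the members that hold 2 different motifs. The 250 bases before each start are printed to let promoters of genes that moved differently be compared. They are from RefSeq on GRCm38.p6, run 5′ to 3′ on the gene's strand and lie at chr3:32736756-32737005 (minus, Mrpl47), chr11:59202236-59202485 (plus, Mrpl55), chr7:78783090-78783339 (minus, Mrpl46), chr7:78782881-78783130 (plus, Mrps11) and chr7:105811088-105811337 (minus, Mrpl17). The start is RefSeq's, which for Mrpl47 and Mrpl46 lies 850 and 442 bases inside the annotated gene span given above, so these windows lie within the span. For Mrps11 and Mrpl17 it lies 12 bases inside, and for Mrpl55 it is the same. Capitals mark matches to the motifs below.
Mrpl47: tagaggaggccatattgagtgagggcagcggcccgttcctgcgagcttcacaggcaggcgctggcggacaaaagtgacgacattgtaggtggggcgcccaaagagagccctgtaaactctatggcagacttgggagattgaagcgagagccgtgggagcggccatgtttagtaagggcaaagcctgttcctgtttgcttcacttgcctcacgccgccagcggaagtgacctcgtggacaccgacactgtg
Mrpl55: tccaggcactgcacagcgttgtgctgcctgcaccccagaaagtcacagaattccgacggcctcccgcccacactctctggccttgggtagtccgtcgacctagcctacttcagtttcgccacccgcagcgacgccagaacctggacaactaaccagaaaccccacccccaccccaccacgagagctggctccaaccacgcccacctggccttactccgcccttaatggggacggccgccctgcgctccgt
Mrpl46: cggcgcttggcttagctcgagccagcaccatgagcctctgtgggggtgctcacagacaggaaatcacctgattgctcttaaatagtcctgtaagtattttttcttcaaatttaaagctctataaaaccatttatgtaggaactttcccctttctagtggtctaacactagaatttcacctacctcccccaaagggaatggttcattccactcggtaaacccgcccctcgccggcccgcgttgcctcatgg
Mrps11: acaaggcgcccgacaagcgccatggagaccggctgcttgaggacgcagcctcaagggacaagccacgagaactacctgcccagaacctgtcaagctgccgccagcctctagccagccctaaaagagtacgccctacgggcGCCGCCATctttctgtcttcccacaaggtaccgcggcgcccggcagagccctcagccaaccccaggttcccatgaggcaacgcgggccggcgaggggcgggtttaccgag
Mrpl17: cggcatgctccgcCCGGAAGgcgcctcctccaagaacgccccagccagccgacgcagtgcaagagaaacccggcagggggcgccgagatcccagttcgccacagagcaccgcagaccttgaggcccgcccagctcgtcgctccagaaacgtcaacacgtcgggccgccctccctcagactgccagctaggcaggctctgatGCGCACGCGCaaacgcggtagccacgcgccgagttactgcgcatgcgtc
The windows of Mrpl47, Mrpl55 and Mrpl46 hold no match, and those of Mrpl46 and Mrps11 overlap on opposite strands. Capitals in the Mrps11 window are a YY1 motif on the reverse strand, and those in the Mrpl17 window are an ETS motif and an NRF1 motif.

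Motifs were searched on both strands of these windows of 250 bases, which were held for 68 tested members, and set beside the 8166 tested genes with an entry. The ETS motif CCGGAAG, bound by factors such as GABP, was in 23.5% of member windows and 15.9% of all windows. The NRF1 motif, GCGCA, then any base, then GCGC, was in 14.7% of member windows and 9.43% of all. The YY1 motif ATGGCGGC was in 1.47% of member windows, that of Mrps11 alone, and 2.11% of all. With the 50 bases after the start included, the YY1 motif was in 16.2% of member windows and 5.84% of all, the ETS motif in 35.3% and 21.0%, and the NRF1 motif in 19.1% and 11.9%. In the 250 bases, the E-box CACGTG, which MYC binds, was in 7.35% of member windows and 8.84% of all, and the CCAAT box in 35.3% and 37.5%. Among 14 rises and 14 falls with a window, the ETS motif was in 2 rises (Mrps16, Mrpl52) and 1 fall (Mrpl43), and the NRF1 motif in 0 rises and 2 falls (Mrpl9, Mrpl44). Most matches were in uncalled members: of 40 with a window, 13 held the ETS motif and 8 the NRF1 motif. A match to these letters is a description, and the differences between rises, falls and uncalled members were not tested.

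Of 5 tested genes for mitochondrial ribosomal proteins without an Mrpl or Mrps name, 1 was higher and 0 were lower. Aurkaip1, a small subunit protein, had 84.7, 78.5 and 84.4 RPKM in OMP, against 64.2, 71.7 and 59.7 RPKM in Vehicle, a 1.27-fold rise without overlap (limma adjusted p = 0.00432). Dap3, the GTP-binding protein of the small subunit head, averaged 19.1 ± 1.40 RPKM in OMP and 21.1 ± 0.338 RPKM in Vehicle (SD, n = 3 each). It did not pass (limma adjusted p = 0.124), but with TPM it was called lower (log2 fold change -0.23, limma adjusted p = 0.0211). Ptcd3, also of the small subunit, differed by 0.19 on the log2 scale (limma adjusted p = 0.0772).

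Factors that build the mitochondrial ribosome also split, with 6 of 26 higher and 5 lower, 42.3% in all against 43.0% of all genes. Ddx28, an RNA helicase needed for large subunit assembly, had 30.7, 28.0 and 27.5 RPKM in OMP, against 16.1, 15.2 and 13.8 RPKM in Vehicle. Its groups were far apart, and its 1.88-fold rise (limma adjusted p = 4.45e-05) exceeded that of any member. Mrm3, Nsun4, Rcc1l, Dhx30 and Rpusd4 rose by 0.19 to 0.46 on the log2 scale. Mpv17l2, a membrane protein of the assembly pathway, had 16.6, 14.1 and 13.4 RPKM in OMP, against 24.3, 20.2 and 20.2 RPKM in Vehicle, 1.45-fold lower without overlap (limma adjusted p = 0.00348). Mettl17, Mrm2, Trub2 and Mtg2 were the other falls, by 0.22 to 0.60 on the log2 scale. On the RPKM scale none of 15 translation factors rose and 4 fell (26.7%), against 15.4% and 27.5% of all genes. Mtrf1, a peptide chain release factor, had 7.63, 6.26 and 6.43 RPKM in OMP, against 14.4, 12.5 and 14.1 RPKM in Vehicle. It was 1.95-fold lower (limma adjusted p = 0.000156), more than any member. Tsfm, the exchange factor of the elongation factor Tufm, was 1.40-fold lower, and Guf1 and Mtif2 fell by 0.30 and 0.24 on the log2 scale. Tufm, which delivers tRNAs, stood at -0.25 on that scale (limma adjusted p = 0.0551), and Lrpprc, which stabilises mitochondrial mRNAs, at 0.06. Lrpprc was called higher with median-of-ratios scaling (log2 fold change 0.15, limma adjusted p = 0.0463). It was also called higher with the GC and length trend removed (log2 fold change 0.18, limma adjusted p = 0.0202).

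Of 15 genes that the organelle itself encodes 9 were tested and 3 of these called (33.3%, against 43.0% of all genes), and the other 6 (mt-Nd3, mt-Nd4l, mt-Co2, mt-Co3, mt-Atp6, mt-Atp8) are listed at 0 in every library. The rRNA of the large subunit, mt-Rnr2, had 327, 339 and 327 RPKM in OMP, against 347, 375 and 408 RPKM in Vehicle, and was called lower (log2 fold change -0.18, limma adjusted p = 0.0280). That call was lost with median-of-ratios scaling, and with the GC and length trend removed the log2 fold change was 0.00. It was also lost without OMP replicate 1 or 3 and without Vehicle replicate 2 or 3. The rRNA of the small subunit, mt-Rnr1, fell by 0.27 on the log2 scale (limma adjusted p = 0.0330), and both were measured in poly(A)-selected RNA. Among the mRNAs, mt-Cytb was called higher, with 1980, 2309 and 2038 RPKM in OMP against 1659, 1729 and 1817 RPKM in Vehicle (log2 fold change 0.28, limma adjusted p = 0.00562), but its log2 fold change was -0.06 after quantile normalization.

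Of 13 tested regulators of nuclear genes for mitochondria and of mitochondrial transcription, 2 were higher and 4 lower. These shares of 15.4% and 30.8% stood beside 15.4% and 27.5% of all genes tested. Pprc1, a coactivator of the PGC-1 family, had 30.6, 30.4 and 31.7 RPKM in OMP, against 22.5, 19.8 and 21.4 RPKM in Vehicle, a 1.45-fold rise without overlap (limma adjusted p = 0.000261). Polrmt, the mitochondrial RNA polymerase, rose 1.34-fold (limma adjusted p = 0.00359). Tfam, which packages mitochondrial DNA and starts its transcription, had 13.3, 14.5 and 12.5 RPKM in OMP, against 18.1, 21.2 and 17.2 RPKM in Vehicle. It was 1.39-fold lower with no overlap (limma adjusted p = 0.00396). Gabpb1, Gabpb2 and Yy1 fell by 0.36, 0.30 and 0.20 on the log2 scale. Nrf1 and Gabpa, whose products bind the NRF1 and ETS motifs, had log2 fold changes of 0.05 (SE 0.06) and -0.11 (SE 0.05) and did not pass. With TPM, Gabpa was called lower (log2 fold change -0.20, limma adjusted p = 0.0165). Over these 5 lists of related genes 25 of 68 tested genes were called (36.8%, against 43.0% of all genes), 10 higher and 15 lower. With TPM 6 were higher and 26 lower, against 11.0% and 36.1% of all genes. With the GC and length trend removed 16 were higher and 7 lower, against 22.5% and 19.6%.

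**Figure D5:**
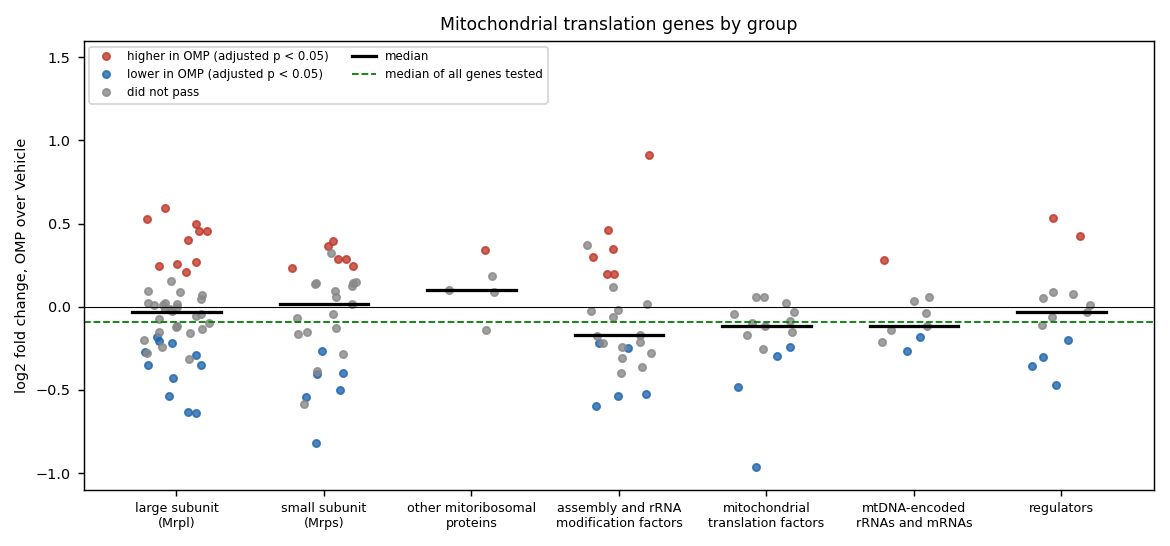
Log2 fold change of OMP over Vehicle for each tested gene, by group: members by subunit, then other mitoribosomal proteins, assembly and rRNA modification factors, translation factors, mitochondrially encoded RNAs and regulators. Black bars are group medians and the dashed line is the median of all genes tested (-0.09). On the RPKM scale, every group but the translation factors (0 higher) and the other mitoribosomal proteins (0 lower) holds calls in both directions. The points farthest from 0 are Mtrf1 at -0.97 and Ddx28 at 0.91.

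The cytosolic ribosomal protein genes, the nearest family for comparison, had 12 of 82 tested genes higher and 35 lower. That was 57.3% in all, against 43.0% of all genes. By direction it was 14.6% higher and 42.7% lower, against 15.4% and 27.5% of all genes. Their median log2 fold change was -0.10, against -0.02 for the members and -0.09 for all genes tested. Their split with TPM was 5 higher and 47 lower, against 11.0% and 36.1% of all genes. With median-of-ratios scaling it was 26 and 24, against 21.5% and 20.3%. After quantile normalization it was 11 and 47, against 20.4% and 21.1%. With the GC and length trend removed it was 21 and 22, against 22.5% and 19.6%. The difference between the families was not tested.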

How the data were processed

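The authors deposited RPKM values, reads scaled to gene length and library total, in 1 table with a column per library. Per the submitters' processing notes, the build was mm10 (GRCm38) and the tools were STAR 2.5.3a, featureCounts 1.6.3, Trimmomatic 0.36 and FastQC 0.11.5. For the counting, annotation release and strand setting were not given in the sources used here. Genes that overlap, lie antisense or are near copies may therefore share reads.

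The RPKM values resolved into whole reads for 100% of the 19970 genes above 0 in any library (relative tolerance 1e-06), and 3 reads of a 1 kb gene stand for 0.706 to 0.858 RPKM. The recovered lengths of tested members equal the longest annotated transcript for 51, another transcript for 20 and no annotated length for 6, among them Mrpl16 and Mrpl28. Reads carry no molecular identifiers, so depth covers counting error only. Libraries of a group differed by more than sampling noise (chi-square per degree of freedom 1.18 to 1.57), so none was a copy of another. This cannot tell separate cultures from repeat preparations of 1 culture.

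Genes that reached 1 RPKM in 3 or more libraries were fitted as log2(RPKM + 0.5) with limma 3.58.1 in R 4.3.3, without covariates and with a trended prior. Two-sided p-values received a Benjamini-Hochberg adjustment across the 11020 genes tested and were read at a threshold of 0.05. Log2 fold changes, and folds made from them, are on this scale and understate changes of low genes. The procedure was tested on simulated data.

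The members, the lists of related genes and the structural classes were chosen with earlier results of these data known. Named genes were the 6 largest rises and 6 largest falls past the threshold whose higher group averaged 5 RPKM or more, the 3 highest and 3 lowest members, 12 members by name, and in each other list the smallest p in each direction and a few genes by name. Further genes were named after their values were seen. Of the listed entries 2 (Ict1, Mrp63) matched no row and are older names of Mrpl58 and Mrpl57. Marker lists of some other cell types are not reported here. Gene positions, overlaps and GC content came from GENCODE M21 on GRCm38, and promoter windows from RefSeq on GRCm38.p6.

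The 17 alternatives were other pseudocounts (1 and 0.1), dropping the filter or raising it to an RPKM of 5, TPM, median-of-ratios scaling, quantile normalization, removal of the GC and length trend, the replicate number as a block, a robust prior, limma-voom on the recovered reads, and leaving out each library in turn. A threshold of 0.01 and subunits by structure were also tried. Figures were drawn with matplotlib 3.10.9 in Python 3.11.15.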

Additional observations from a re-analysis of the deposited data

How the results depend on the processing

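The 33 members called numbered 24 to 31 when 1 library was left out, and 19 (8 higher, 11 lower) at an adjusted p under 0.01, against 27.9% of all genes. Calls in the large subunit (21) ran from 17 to 20 and in the small subunit (12) from 7 to 11 over these fits, the lowest small subunit count without Vehicle replicate 3, and the small subunit had 6 without the expression filter, which adds low genes to the adjustment. Related genes called (25) ran from 15 (without OMP replicate 3) to 23, with 16 without Vehicle replicate 3, and numbered 16 without the filter. The members' median log2 fold change of -0.02 was 0.0428 with the GC and length trend removed, -0.109 with TPM, 0.0643 with median-of-ratios scaling and 0.0383 after quantile normalization, and -0.0527 to -0.011 with 1 library left out. The difference of subunit medians, large minus small, was -0.05, and it was -0.0933 after quantile normalization, 0.0214 with subunits by known structure, and between -0.1028 and 0.0032 with 1 library left out. The log2 fold change of mt-Cytb turned to -0.0599 (limma adjusted p = 0.441) after quantile normalization and that of mt-Rnr2 to 0.0012 (limma adjusted p = 0.988) with the GC and length trend removed. The cause of these shifts, those without the filter included, was not tested. All other total counts of calls were within 1.5 times their main value, but splits by direction moved further. Members were 9 higher and 14 lower without the filter and 10 higher and 14 lower without Vehicle replicate 3, where the small subunit had 3 higher and 4 lower. Related genes were 13 higher and 8 lower with median-of-ratios scaling, 7 and 9 without the filter, and 6 higher without OMP replicate 2, OMP replicate 3 or Vehicle replicate 3.

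Libraries that share a replicate number were not shown to be paired: the correlations of their deviations were -0.00, 0.02 and 0.01. No library correlated best with the library of its own number. With the replicate number as a block 36 members were called, 17 higher and 19 lower. Depth limits genes such as Mrps36, Mrps33 and Mrps34, which had fewer than 40 reads in every library.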
